A study of Homo sapiens with 12 samples.

Results

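The NF-kappa B subunits and their feedback inhibitors are described here as 10 genes, taken by symbol from the 19225 entries of the counts table. The 5 subunit genes were NFKB1, NFKB2, REL, RELA and RELB, and the 5 inhibitor and feedback genes were NFKBIA, NFKBIE, NFKBIZ, TNFAIP3 and BIRC3. All 10 passed the filter on low counts. Poly(A) RNA was sequenced from HN6 and HN30, a pair of established lines grown from oral squamous cell carcinoma (OSCC). Each line was transfected, with Lipofectamine RNAiMAX, with a scrambled siRNA (NC), with siFAT1-1 or with siFAT1-2, the latter pair directed against the cadherin gene FAT1, and RNA was taken after 24 h. Each of the 6 conditions was sequenced in 2 replicates made at separate times, for 12 libraries in all, 4 of them NC and 8 with FAT1 knocked down (KD). The control cells were transfected too, so no group was untreated, each line stands for 1 tumour, and the knockdown was transient. The sample names call the knockdown groups sh1 and sh2 while their descriptions name siRNAs, and siRNA is used here.

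The libraries held 26430049 to 47639010 counts, and the replicates of each condition differed by more than counting noise (a chi-square of 14.7 to 247 for each degree of freedom). FAT1 in HN6 was at 56.8 and 66.7 TMM-normalised CPM (counts scaled to a common library size) with NC, 7.61 and 13.5 with siFAT1-1, and 13.2 and 21.4 with siFAT1-2. In HN30 it was at 13.6 and 14.7 CPM with NC, 4.86 and 6.26 with siFAT1-1, and 10.8 and 7.74 with siFAT1-2. The labelled epithelial identity was seen in the RNA. The 9 squamous epithelial markers (KRT5, KRT14, KRT6A, KRT17, TP63, CDH1, EPCAM, DSG3, SFN) summed to 2005 to 3675 CPM in NC and 1242 to 6013 CPM in KD libraries, and all 9 in HN6 and 8 in HN30 reached 1 CPM on average. The 6 leukocyte markers summed to 27.9 to 101.6 CPM in NC and 24.5 to 123.8 CPM in KD libraries, with PTPRC at 0 in every KD library. The 6 fibroblast markers summed to 12.5 to 74.2 CPM in NC and 31.7 to 163.7 CPM in KD libraries, and the 3 endothelial markers to 0.594 to 4.68 and 0.202 to 7.87 CPM. The part of these markers in the results was not tested.

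NF-kappa B is a family of paired transcription factors that bind kappa B sites in DNA. In resting cells the pairs are held in the cytoplasm by I kappa B proteins, and cytokine or danger signals activate the IKK kinases, which mark the inhibitor for destruction and let the pair enter the nucleus. Among the genes that NF-kappa B then switches on are its own brakes, and several of its own subunits, so that the level of these transcripts is often read beside the activity of the pathway. In squamous epithelium and its tumours the pathway is known for driving cytokines, chemokines and survival genes.

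The members lie on several chromosomes (GENCODE 44, GRCh38). The subunit genes are NFKB1 at chr4:102501330-102617302, NFKB2 at chr10:102394110-102402524, REL at chr2:60881491-60931612 and RELB at chr19:45001461-45038192 on the plus strand, and RELA at chr11:65653599-65663090 on the minus strand. NFKBIZ at chr3:101827991-101861022, TNFAIP3 at chr6:137867214-137883314 and BIRC3 at chr11:102317484-102339403 lie on the plus strand, and NFKBIA at chr14:35401079-35404749 and NFKBIE at chr6:44258166-44265788 on the minus strand. The feedback runs through kappa B sites in the promoters of those members that NF-kappa B switches on. Stretches from 2 subunits and 2 brakes with a match, and from the RELA window without a match, are therefore printed. RefSeq promoter windows (GRCh38.p14, 250 bases before to 50 after the start) were found for 8 of the 10 members. RELB and NFKBIE had no entry. The kappa B consensus decamer, searched on both strands, was found in 6 of these 8 windows, against 5.72% of all 27305 promoter windows and 6.63% of the 10740 windows of tested genes. It was in those of NFKB1, REL, NFKBIA, NFKBIZ, TNFAIP3 and BIRC3, and in neither RELA nor NFKB2. The RELA window (chr11:65663808-65664107) lies wholly upstream of the GENCODE gene given above and does not cover its GENCODE start. The lack of a match in RELA therefore holds for the RefSeq window only. REL held 2 matches that overlap on opposite strands, and TNFAIP3 and BIRC3 held 2 separate ones. The stretches below run 5′ to 3′ along each gene's strand, from 110 to 31 bases before its RefSeq start, and capitals mark the decamers. They lie at chr4:102501249-102501328 (plus strand) for NFKB1, chr2:60881464-60881543 (plus) for REL, chr14:35404780-35404859 (minus) for NFKBIA, chr6:137867149-137867228 (plus) for TNFAIP3 and chr11:65663888-65663967 (minus) for RELA.
NFKB1: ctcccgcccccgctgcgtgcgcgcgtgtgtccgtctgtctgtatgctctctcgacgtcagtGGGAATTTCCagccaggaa
REL: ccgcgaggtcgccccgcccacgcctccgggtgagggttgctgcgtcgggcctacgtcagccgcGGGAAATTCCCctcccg
NFKBIA: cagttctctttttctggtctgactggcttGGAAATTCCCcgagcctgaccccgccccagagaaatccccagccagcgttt
TNFAIP3: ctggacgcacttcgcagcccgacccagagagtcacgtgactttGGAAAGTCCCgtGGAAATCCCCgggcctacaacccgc
RELA: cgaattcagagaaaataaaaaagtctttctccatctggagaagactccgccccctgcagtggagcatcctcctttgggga
The decamers began 49 bases before the start in NFKB1, 47 in REL, 81 in NFKBIA, and 67 and 55 in TNFAIP3. A match is a description of these letters and was not tested as a binding site.

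A technical property of the libraries touches every member and is given first. Among the 1326 tested genes with the lowest GC content of their transcript, the median log2 CPM in the HN6 NC library of replicate 2 stood at -1.17 relative to the mean of the 6 HN6 libraries, and among the 1326 with the highest it stood at 0.24. The HN6 siFAT1-2 libraries were tilted the other way, by 0.59 and 0.70 for the lowest-GC genes and by -0.10 and -0.40 for the highest-GC genes. The HN30 libraries tilted less, with siFAT1-2 at 0.12 and 0.13 for low-GC genes, siFAT1-1 at -0.08 and -0.07 and the NC libraries farthest apart at -0.17 and 0.12, as the plot of medians by library shows. The members span this range. BIRC3 (35.8% GC) and REL (38.4%) were among the lowest-GC genes, NFKBIZ (46.2%), TNFAIP3 (49.35%), NFKB1 (50.1%) and NFKBIA (53.05%) lay between, and RELA (58.6%), NFKBIE (60.4%), NFKB2 (61.2%) and RELB (64.9%) were GC-rich. The tests were therefore also run with offsets that take this tilt out of each library (GC-bin offsets), which also take out any true difference that follows GC content, and those values are given where they change a member's call.

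**Figure D1:**
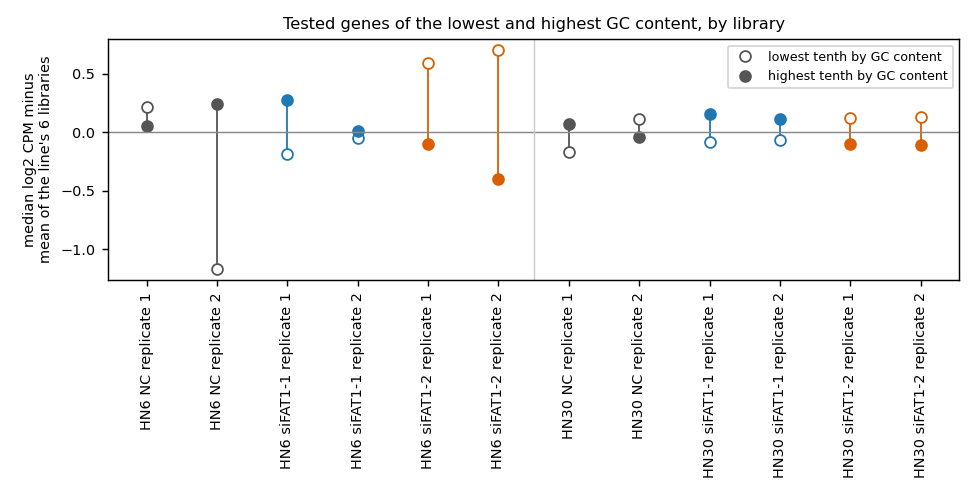
For each of the 12 libraries (x axis), the y axis gives the median log2 CPM, minus the mean of the line's 6 libraries, of the 1326 tested genes with the lowest (open points) and the highest (filled points) transcript GC content, in grey for NC, blue for siFAT1-1 and orange for siFAT1-2. HN6 NC replicate 2 has its low-GC genes at -1.17, and the HN6 siFAT1-2 libraries have theirs at 0.59 and 0.70.

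In the NC cells of both lines NFKBIA, which encodes I kappa B alpha, the fast inhibitor, was the most abundant member per transcript length, and REL the least. Levels are given here as CPM per kilobase of the canonical transcript. NFKBIA was at 151.1 and 132.5 in the replicates of HN6 NC and at 172.6 and 130.6 in those of HN30 NC. In HN6 the mean levels then ran in the order RELA 98.3, NFKB2 87.7, TNFAIP3 63.8, NFKBIE 31.3, RELB 27.7, NFKB1 17.2, NFKBIZ 16.2, BIRC3 9.97 and REL 0.404. The ranges of the replicates overlapped for RELA and NFKB2, for NFKBIE and RELB, and for each neighbour from NFKB1 down to REL. In HN30 the order was NFKBIA 151.6, NFKB2 51.3, RELA 49.8, NFKBIZ 23.0, TNFAIP3 21.9, NFKB1 19.6, RELB 15.4, BIRC3 15.1, NFKBIE 13.2 and REL 1.63, and the ranges of NFKB2 and RELA and of every neighbouring pair from NFKBIZ down to NFKBIE overlapped. NFKBIA stayed first and REL last by mean in all 6 conditions, though its range met that of RELA in HN6 siFAT1-1.

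Between the lines, in NC cells, 3 members passed the thresholds for differentially expressed genes (DEGs, unadjusted P under 0.05 and absolute log2 fold change above 1), against 30.5% of the 14360 genes tested, so that their share was close to the background. HN30 had more REL, by a log2 fold change of 2.02 ± 0.58 (SE; edgeR adjusted p = 0.0249), and less TNFAIP3, by -1.54 ± 0.37 (adjusted p = 0.0126), and less NFKBIE, by -1.24 ± 0.35 (adjusted p = 0.0238). RELA and NFKB2 also differed at an adjusted p under 0.05, a rule that 31.3% of genes passed, with -0.98 ± 0.26 (adjusted p = 0.0195) and -0.77 ± 0.22 (adjusted p = 0.0225) by edgeR. REL, TNFAIP3 and NFKBIE kept their DEG calls in all 7 other settings that kept all libraries. With 1 library left out NFKBIE came as near to 0 as -0.82. Sizes and adjusted p were less stable than the DEG calls. REL was at 1.34 with GC-bin offsets, at 1.33 without HN6 NC replicate 2 (edgeR adjusted p = 0.0751), at 1.505 without HN30 NC replicate 2 (adjusted p = 0.148) and at 3.26 without HN6 NC replicate 1. With GC-bin offsets RELA (adjusted p = 0.0652) and NFKB2 (0.0847) no longer passed in edgeR, and without HN30 NC replicate 2 the number of members with an adjusted p under 0.05 went from 5 to 0.

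Among the subunits, NFKB1 and RELB had every KD library of a line below its NC pair, RELA and NFKB2 were lower mainly with siFAT1-2, and REL showed no shared direction. In bulk RNA, fewer cells of a type and less RNA per cell cannot be told apart, which holds for every difference below. NFKB1 encodes p105, the precursor of the p50 subunit. NFKB1 in HN6 was at 72.5 and 67.0 CPM with NC, 45.2 and 42.6 CPM with siFAT1-1 and 16.95 and 31.02 CPM with siFAT1-2. NFKB1 in HN30 was at 76.4 and 82.2 CPM with NC, 64.3 and 67.5 CPM with siFAT1-1 and 31.6 and 36.7 CPM with siFAT1-2. The 3 groups did not overlap in either line, with NC highest and siFAT1-2 lowest. NFKB1 fell with siFAT1-2 by 1.38 on the log2 scale (SE 0.19; edgeR adjusted p = 0.00253), to a level 2.605-fold lower, and was at -0.47 ± 0.19 (adjusted p = 0.198) with siFAT1-1.

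RELA encodes p65, the main activating partner of p50. Its levels in HN6 were 288 and 207.2 CPM with NC, 217.6 and 151.8 CPM with siFAT1-1 and 98.0 and 70.5 CPM with siFAT1-2. In HN30 its levels were 137.8 and 112.7 CPM with NC, 124.1 and 132.5 CPM with siFAT1-1 and 64.4 and 55.2 CPM with siFAT1-2. The siFAT1-2 libraries lay below all others of their line, while the siFAT1-1 and NC libraries overlapped in both lines. RELA fell with siFAT1-2 by 1.32 on the log2 scale (SE 0.19; edgeR adjusted p = 0.00316), and with siFAT1-1 it was at -0.20 with a 95% interval from -0.61 to 0.21 (adjusted p = 0.598).

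NFKB2 and RELB form the pair of the slower, noncanonical branch, NFKB2 as the p100 precursor of p52. NFKB2 in HN6 was at 277.6 and 251.3 CPM with NC, 155.2 and 128.7 CPM with siFAT1-1 and 77.8 and 97.1 CPM with siFAT1-2. NFKB2 in HN30 was at 171.3 and 138.1 CPM with NC, 170.1 and 165.3 CPM with siFAT1-1 and 96.2 and 122.0 CPM with siFAT1-2. In HN6 the 3 groups were apart, and in HN30 siFAT1-1 lay within the NC range while siFAT1-2 lay below it. NFKB2 fell with siFAT1-2 by 1.08 on the log2 scale (SE 0.23; edgeR adjusted p = 0.0134) and was at -0.42 ± 0.23 (adjusted p = 0.325) with siFAT1-1. With GC-bin offsets its siFAT1-2 value was -0.79, no longer past a log2 fold change of 1, with an edgeR adjusted p of 0.0338.

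RELB in HN6 was at 75.6 and 49.7 CPM with NC, 44.5 and 23.0 CPM with siFAT1-1 and 21.3 and 17.8 CPM with siFAT1-2. RELB in HN30 was at 48.6 and 21.1 CPM with NC, 20.8 and 20.5 CPM with siFAT1-1 and 15.98 and 11.35 CPM with siFAT1-2. Every KD library lay below both NC libraries of its line, though in HN30 the lower NC library was only just above siFAT1-1. RELB fell with siFAT1-2 by 1.52 on the log2 scale (SE 0.29; edgeR adjusted p = 0.0086), and with siFAT1-1 it was at -0.82 ± 0.28 (adjusted p = 0.143).

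REL, which encodes c-Rel, a subunit best known from lymphocytes, was the scarcest member. REL in HN6 was at 7.11 and 1.86 CPM with NC, 3.76 and 3.82 CPM with siFAT1-1 and 7.01 and 11.85 CPM with siFAT1-2. REL in HN30 was at 12.7 and 23.4 CPM with NC, 22.6 and 18.7 CPM with siFAT1-1 and 14.1 and 21.05 CPM with siFAT1-2. In HN30 the groups overlapped, and in HN6 the NC replicates lay on either side of all siFAT1-1 values. Against NC it was at 0.01 ± 0.43 (siFAT1-1) and 0.57 ± 0.43 (siFAT1-2) on the log2 scale, with edgeR adjusted p of 0.993 and 0.403. The low HN6 value is that of NC replicate 2, the library with depleted low-GC genes, and with GC-bin offsets the siFAT1-2 value was 0.13.

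**Figure D2:**
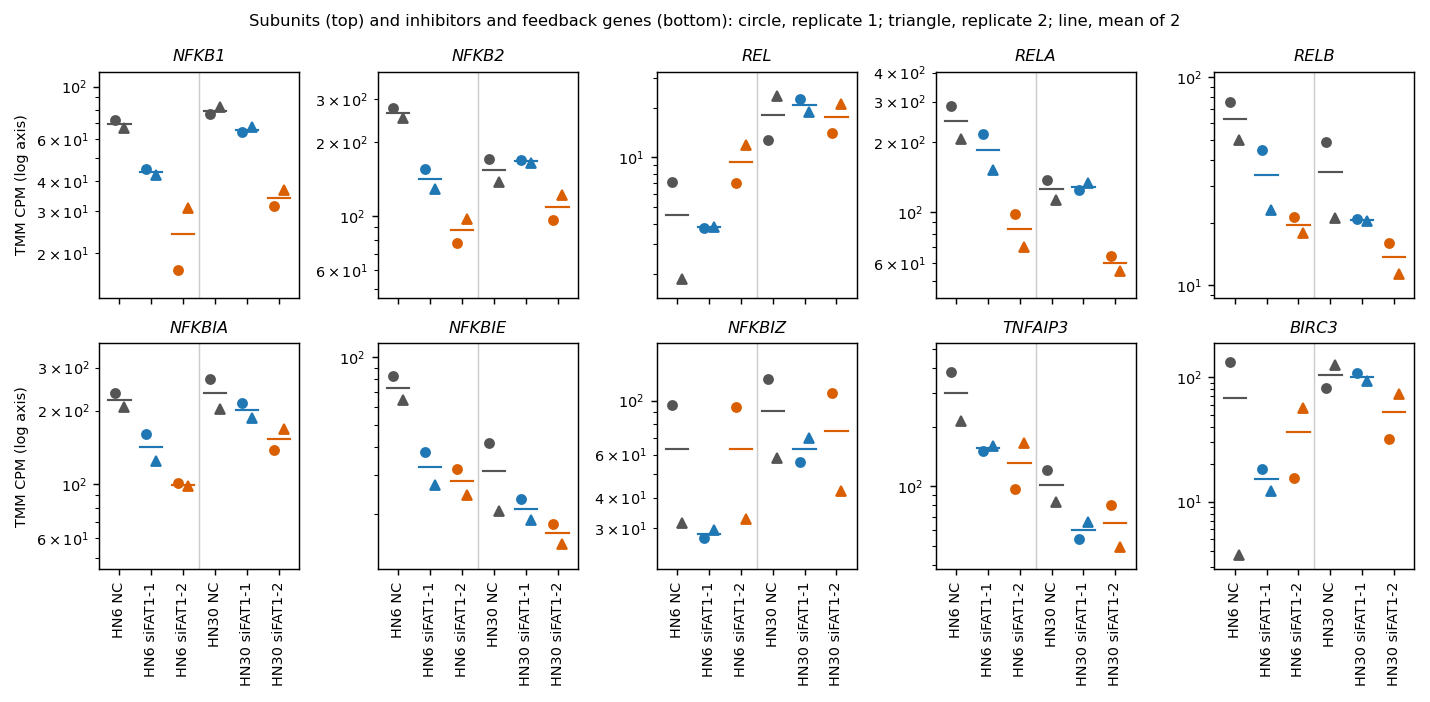
TMM CPM on a log y axis, with its own scale in each panel, for the 5 subunits (top) and the 5 inhibitor and feedback genes (bottom) in the 6 conditions (x axis), with replicate 1 as circles, replicate 2 as triangles and the mean of both as a line. The siFAT1-2 libraries lie lowest for NFKB1, NFKB2, RELA, RELB and NFKBIA in both lines, while the HN6 NC replicates of BIRC3 stand at 133.4 and 3.72 CPM.

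Among the inhibitors and feedback genes, NFKBIA, NFKBIE and TNFAIP3 were lower in all 8 KD libraries than in the NC library of the same line and replicate, while NFKBIZ was lower in 6 and BIRC3 in 5 of the 8. NFKBIA in HN6 was at 235.6 and 206.6 CPM with NC, 160.5 and 124.3 CPM with siFAT1-1 and 101.3 and 97.7 CPM with siFAT1-2. NFKBIA in HN30 was at 269.1 and 203.7 CPM with NC, 214.0 and 187.3 CPM with siFAT1-1 and 138.5 and 168.0 CPM with siFAT1-2. The groups were apart in HN6, and in HN30 siFAT1-2 lay below siFAT1-1, of which 1 library overlapped the NC range. NFKBIA fell with siFAT1-2 by 0.89 on the log2 scale (SE 0.16; edgeR adjusted p = 0.00769) and was at -0.44 ± 0.16 (adjusted p = 0.167) with siFAT1-1.

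NFKBIE encodes I kappa B epsilon, a slower inhibitor that is also made in response to NF-kappa B. NFKBIE in HN6 was at 82.4 and 64.3 CPM with NC, 37.9 and 27.1 CPM with siFAT1-1 and 31.7 and 24.4 CPM with siFAT1-2. NFKBIE in HN30 was at 41.5 and 20.6 CPM with NC, 23.3 and 18.8 CPM with siFAT1-1 and 18.1 and 14.8 CPM with siFAT1-2. All KD libraries of HN6 lay below NC, and in HN30 1 siFAT1-1 library exceeded the lower NC library. NFKBIE fell with siFAT1-2 by 1.16 on the log2 scale (SE 0.25; edgeR adjusted p = 0.0136), and was at -0.87 ± 0.24 (adjusted p = 0.076) with siFAT1-1. With GC-bin offsets the siFAT1-2 value was -0.86 (edgeR adjusted p = 0.0369), and without HN30 NC replicate 1 it was -1.05 (adjusted p = 0.0512).

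TNFAIP3 encodes A20, an enzyme that edits ubiquitin chains on signalling proteins upstream of IKK and so ends the signal. TNFAIP3 in HN6 was at 380.8 and 214.4 CPM with NC, 151.5 and 160.1 CPM with siFAT1-1 and 96.7 and 166.9 CPM with siFAT1-2. TNFAIP3 in HN30 was at 121.5 and 82.9 CPM with NC, 54.2 and 66.1 CPM with siFAT1-1 and 80.2 and 49.35 CPM with siFAT1-2. The KD libraries lay below NC in both lines, and those of the siRNAs overlapped. TNFAIP3 fell with siFAT1-2 by 0.91 on the log2 scale (SE 0.25; edgeR adjusted p = 0.0364), and siFAT1-1 put it at -0.85 ± 0.25 (adjusted p = 0.0867). The siFAT1-2 call was not firm, as with GC-bin offsets the value was -0.82 (edgeR adjusted p = 0.0666) and leaving out any of 8 single libraries, HN30 NC replicate 1 the most (adjusted p = 0.103), took it above 0.05.

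NFKBIZ encodes I kappa B zeta, a nuclear member of the family that works as a cofactor at a set of cytokine genes. NFKBIZ in HN6 was at 95.5 and 31.5 CPM with NC, 27.3 and 29.6 CPM with siFAT1-1 and 93.7 and 32.8 CPM with siFAT1-2. NFKBIZ in HN30 was at 122.4 and 58.3 CPM with NC, 56.2 and 70.5 CPM with siFAT1-1 and 107.5 and 42.7 CPM with siFAT1-2. With NC and siFAT1-2 the replicate 1 library was the higher one in both lines, and with siFAT1-1 it was not. Against NC it was at -0.81 ± 0.44 (siFAT1-1) and -0.12 ± 0.43 (siFAT1-2) on the log2 scale, with edgeR adjusted p of 0.331 and 0.873, and the latter value ran from -0.57 to 0.27 as single libraries were left out.

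BIRC3 encodes cIAP2, a ubiquitin ligase of the TNF receptor complex that also restrains the noncanonical branch. BIRC3 in HN6 was at 133.4 and 3.72 CPM with NC, 18.1 and 12.3 CPM with siFAT1-1 and 15.6 and 56.2 CPM with siFAT1-2. BIRC3 in HN30 was at 81.7 and 125.5 CPM with NC, 108.4 and 93.6 CPM with siFAT1-1 and 31.6 and 73.2 CPM with siFAT1-2. The HN6 NC replicates enclosed all 4 KD libraries of that line, and in HN30 both siFAT1-2 libraries lay below NC. BIRC3 is the member with the lowest GC content (35.8%), and the 3.72 CPM is from HN6 NC replicate 2, the library with depleted low-GC genes. The siRNAs gave nearly equal log2 fold changes with wide errors, -0.96 ± 0.83 and -0.95 ± 0.80 (edgeR adjusted p of 0.561 and 0.458). Over the other settings that kept all libraries they ran from -0.965 to -0.205 with siFAT1-1 and from -1.34 to -0.47 with siFAT1-2. Against NC without HN6 NC replicate 1 the log2 fold changes turned to 0.20 and 0.57, so that no direction can be given.

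For all KD libraries against NC, 9 of the 10 members had a negative log2 fold change and 2 of them, RELB and NFKBIE, passed the DEG thresholds, against 3.07% of the 13887 genes tested in either direction and 1.04% as lower genes. RELB was at -1.13 ± 0.29 and NFKBIE at -1.01 ± 0.22 (edgeR adjusted p = 0.108 and 0.0635). By edgeR and by limma-voom 0 members had an adjusted p under 0.05 (0.547% of genes did by edgeR), 6 had an unadjusted P under 0.05 with edgeR (all lower, against 7.75% of genes), and DESeq2 gave 4, NFKBIA, NFKBIE, RELB and TNFAIP3. NFKB1, RELB and TNFAIP3 had no overlap between KD and NC within either line (3.15% of genes were lower in this way). Those 3, NFKBIA and NFKBIE were below NC of the same line and replicate in all 8 KD libraries, as were 5.39% of genes. NFKBIE was no longer past a log2 fold change of 1 in 6 of the 8 other fits that kept all libraries, with a replicate block for instance (-0.99), and without HN6 NC replicate 1 or HN30 NC replicate 1 neither member was, with RELB at -0.98 and -0.92.

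Within HN6, 5 members were DEGs, all lower, against 3.08% of 13626 genes in either direction and 0.888% as lower genes. They were NFKB2 (-1.18 ± 0.29), NFKBIE (-1.25 ± 0.27), RELB (-1.21 ± 0.40), TNFAIP3 (-1.02 ± 0.32) and NFKB1 (-1.02 ± 0.38), with an edgeR adjusted p of 0.814 for each. Within HN30, RELB was the 1 DEG, at -1.03 ± 0.38 (edgeR adjusted p = 0.487), against 4.0% of 13602 genes in either direction and 1.91% as lower genes. In each line 0 members had an adjusted p under 0.05 by edgeR or limma-voom, as did 0.0% of genes by edgeR, while 6 in HN6 and 2 in HN30 were lower at an unadjusted P under 0.05 (2.43% and 4.99% of genes), and DESeq2 gave 1 in HN6 and 0 in HN30. With GC-bin offsets RELB and NFKBIE were left as the DEGs of HN6, without HN6 NC replicate 1 or without HN6 siFAT1-2 replicate 1 there were 3, and RELB in HN30 was at -0.94 with a replicate block and at -0.28 without HN30 NC replicate 1. HN30 also had 0 member DEGs without siFAT1-2 replicate 1 or 2, and 2 without NC replicate 2.

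The test of the difference between the lines' responses (HN30 minus HN6) passed the DEG thresholds for NFKB2 alone, at 1.04 ± 0.43 (edgeR unadjusted P = 0.0315, adjusted p = 0.9999), against 1.87% of 14360 genes in either direction and 0.933% as higher genes. The NFKB2 response in HN6 was -1.18 and that in HN30 -0.17 on the log2 scale. FAT1 itself was at -2.11 in HN6 and -0.94 in HN30. This call was lost with a replicate block (edgeR unadjusted P = 0.0517) and with GC-bin offsets (log2 difference 0.85), and also when any of 6 single libraries was left out. By edgeR, limma-voom and DESeq2 0 members (and by edgeR 0.0% of genes) had an adjusted p under 0.05 for this difference, and 1, NFKB2, an unadjusted P under 0.05, against 2.21% of genes.

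By siRNA, more members passed the thresholds with siFAT1-2 than with siFAT1-1, and both comparisons used the same NC libraries. With siFAT1-2, 5 members were DEGs, all lower (NFKB1, NFKB2, RELA, RELB and NFKBIE), against 9.06% of genes in either direction and 4.75% as lower genes. With NFKBIA and TNFAIP3, 7 members had an edgeR adjusted p under 0.05, all lower, against 11.8% of genes in either direction and 7.47% as lower genes. The same 7 had no overlap with NC within either line, which 12.9% of genes did in this direction. With GC-bin offsets 3 were DEGs (NFKB1 at -1.28, RELA at -1.03 and RELB at -1.24) and 6 had an edgeR adjusted p under 0.05. With siFAT1-1, 0 members were DEGs, against 5.58% of genes, and also by limma-voom and DESeq2, though 3 were without HN30 NC replicate 2 and 1 each without HN6 NC replicate 2 or HN6 siFAT1-1 replicate 1. By edgeR and limma-voom 0 had an adjusted p under 0.05, against 3.25% of genes by edgeR, while 5 (NFKB1, RELB, NFKBIA, NFKBIE and TNFAIP3) were lower at an unadjusted P under 0.05, against 10.2% of genes, and DESeq2 gave 2, NFKBIE and TNFAIP3. FAT1 was at -1.996 ± 0.32 with siFAT1-1 and -1.27 ± 0.31 with siFAT1-2 (edgeR adjusted p = 0.00656 and 0.0236), and their difference was -0.73 ± 0.31 (adjusted p = 0.119). The squamous markers moved with the siRNA as well. With siFAT1-2, 4 of the 9 were lower and 1 higher as DEGs, with a median log2 fold change of -1.02, and with siFAT1-1 0 were lower and 1 higher, with a median of 0.51. With GC-bin offsets these were 2 lower and 1 higher (median -0.74) and 0 lower and 3 higher (median 0.49). Their part in the members' values was not tested.

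The difference between the siRNAs itself was past an adjusted p of 0.05 in 2 members, both subunits, against 17.4% of genes. The members' share was thus close to the background. RELA was higher with siFAT1-1 by 1.12 ± 0.19 (edgeR adjusted p = 0.0035) and NFKB1 by 0.91 ± 0.19 (adjusted p = 0.00813). RELA also passed the DEG thresholds here, against 12.4% of genes in either direction and 7.27% as higher ones, and with GC-bin offsets the values were 0.84 for RELA (adjusted p = 0.0104) and 0.83 for NFKB1 (0.0087) by edgeR, so that RELA was no longer a DEG. The siFAT1-2 libraries lay below the siFAT1-1 libraries in both lines for NFKB1, NFKB2, RELA, RELB and NFKBIA, as they did for 18.2% of genes. For TNFAIP3 the difference was 0.06, with a 95% interval from -0.48 to 0.60, and for NFKBIE 0.29, from -0.24 to 0.82, so that differences of up to 0.60 and 0.82 on the log2 scale lie within these intervals. The plot of log2 fold changes by siRNA sets these side by side.

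**Figure D3:**
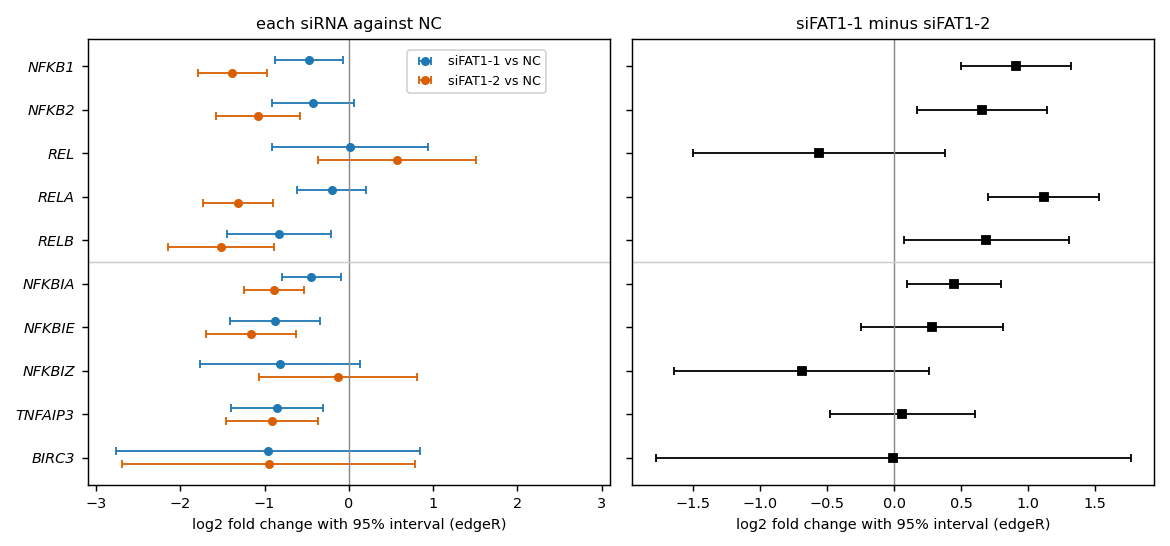
Left, the log2 fold change of each member (y axis) against NC with siFAT1-1 (blue) and siFAT1-2 (orange), and right, the difference siFAT1-1 minus siFAT1-2, each point with its 95% interval from edgeR over all 12 libraries. The intervals for siFAT1-2 lie below 0 for 7 members, and those of the difference lie farthest above 0 for RELA and NFKB1.

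Set side by side, the median log2 fold change was -0.43 over the 5 subunits and -0.85 over the 5 inhibitor and feedback genes with siFAT1-1, and -1.32 and -0.91 with siFAT1-2. Over all genes tested these medians were -0.004 with both siRNAs. For all KD libraries the medians were -0.71 and -0.88, against 0.02 over all genes. The difference between siRNAs had a median of 0.69 over the subunits, from -0.56 in REL to 1.12 in RELA. Over the inhibitors its median was 0.06, from -0.69 in NFKBIZ to 0.45 in NFKBIA. All these medians are without GC-bin offsets. For this difference, the 1326 genes of lowest GC content had a median of -0.536 and the 1326 of highest GC content 0.315. RELA, NFKB2, RELB and NFKBIE were GC-rich. Over the other settings that kept all libraries, RELA ran from 0.835 to 1.12 and NFKB2 from 0.364 to 0.666. RELB ran from 0.336 to 0.713 and NFKBIE from 0.03 to 0.288. The part of the GC tilt in these medians was not tested. A brake can be set against a subunit within a library, here first as the ratio of NFKBIA to RELA per transcript length. In HN6 this ratio was 1.32 and 1.61 with NC, 1.19 and 1.32 with siFAT1-1 and 1.67 and 2.24 with siFAT1-2, and in HN30 it was 3.15 and 2.92, 2.78 and 2.28, and 3.47 and 4.92. The siFAT1-2 libraries had the highest NFKBIA to RELA ratio in both lines and HN30 had a higher one than HN6 in every condition. Other pairs did not separate siFAT1-2 from NC in HN6. NFKBIA to NFKB1 there was 15.54 and 8.20 with siFAT1-2 and 8.46 and 8.02 with NC. TNFAIP3 to RELA there was 0.53 and 1.28 with siFAT1-2 and 0.71 and 0.56 with NC. In HN30 siFAT1-2 lay above NC for both pairs. The ratios are given as a description and were not tested.

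The rest of the pathway is given from 5 lists of other genes. The list of other I kappa B proteins also holds regulators, such as NKIRAS2 and PDLIM2, that are not I kappa B proteins themselves. In all KD libraries against NC, DEGs by edgeR numbered 0 of 12 IKK and upstream kinases and 0 of 19 receptors and adaptors. They numbered 0 of 16 ubiquitin ligases and deubiquitinases and 0 of 8 genes of the I kappa B list. At an unadjusted P under 0.05 these lists held, in that order, 2, 2, 1 and 0 lower genes and 0, 2, 0 and 0 higher ones. None had an adjusted p under 0.05. The median log2 fold changes of these lists ran from -0.09 to -0.04. The most abundant genes of the kinase list were TAB2 (-0.30 ± 0.25) and TAB3 (0.03 ± 0.29), partners of the TAK1 kinase. Those of the receptor and adaptor list were IRAK1 (-0.58 ± 0.18), the kinase of interleukin-1 and Toll-like receptors, and TNFRSF12A (-0.16 ± 0.26), the TWEAK receptor. TNIP1, a partner of A20, was at -0.54 ± 0.19, RBCK1 (HOIL-1) at 0.04 ± 0.30, NKIRAS2 at -0.04 ± 0.27 and NFKBIB, I kappa B beta, at 0.08 ± 0.23.

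Of 28 other induced targets, 5 were lower and 1 higher as DEGs in all KD libraries, against 1.04% of all genes as lower and 3.07% as DEGs in either direction. With GC-bin offsets 4 were lower, with TRAF1 lost (-1.13, edgeR unadjusted P = 0.0547), and without HN6 NC replicate 2 there were 6. Of the 28, 1, CD83, had an edgeR adjusted p under 0.05. Their median log2 fold change was -0.40. CD83, a surface protein of activated cells, was at 28.7 and 31.1 CPM in HN6 NC and 4.46 to 11.6 CPM in HN6 KD libraries, at 23.5 and 14.1 CPM in HN30 NC and 3.52 to 7.39 CPM in HN30 KD libraries, and fell by 1.89 on the log2 scale (SE 0.27; edgeR adjusted p = 0.00855). The interleukin-1 genes IL1B (-1.66 ± 0.44) and IL1A (-1.20 ± 0.45), the adaptor TRAF1 (-1.21 ± 0.56) and the gelatinase gene MMP9 (-4.70 ± 1.06) were the other lower DEGs, with edgeR adjusted p of 0.121, 0.247, 0.342 and 0.0706. MMP9 ranged from 541.6 CPM in HN6 NC replicate 1 to 0 in a HN30 siFAT1-2 library. Its NC replicates stood far apart, at 541.6 and 59.2 CPM in HN6 and 41.2 and 0.353 CPM in HN30, while HN6 siFAT1-1 replicate 1 was at 59.1 CPM, so the fold rests on NC replicate 1 of each line. The proteoglycan gene SDC4 went the other way, at 1.07 ± 0.24 (edgeR adjusted p = 0.0672), from 375.6 to 428.4 CPM in the NC libraries to 497.4 to 1266 CPM in the KD libraries. PLAU, the urokinase gene and, with SDC4, the most abundant of these targets, was at -0.41 ± 0.59.

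By siRNA, 6 of the 28 induced targets were lower and 1 higher as DEGs with siFAT1-1, and 10 were lower and 0 higher with siFAT1-2, with median log2 fold changes of -0.33 and -0.66. Over all genes, DEGs in either direction made up 5.58% with siFAT1-1 and 9.06% with siFAT1-2, of which lower genes were 4.75% of all genes. Among the other lists DEGs numbered, with siFAT1-2, 2 of 12 kinases, 0 of 19 receptors and adaptors and 1 of 16 ubiquitin genes. In the I kappa B list they numbered 2 of 8, and the lists were not tested against each other. IL1B was at -2.64 ± 0.36 with siFAT1-1 and -1.08 ± 0.34 with siFAT1-2 (edgeR adjusted p = 0.00319 and 0.0553), and the difference between the siRNAs was -1.56 ± 0.34 (adjusted p = 0.011), with siFAT1-1 the lower one, unlike in RELA. With siFAT1-2 the kinase genes MAP3K14 (-1.17 ± 0.29), which drives the noncanonical branch, and IKBKE (-1.05 ± 0.25) were lower DEGs. So were BCL3 (-1.07 ± 0.46) and PDLIM2 (-1.67 ± 0.30) of the I kappa B list. TAX1BP1 (1.27 ± 0.39), an adaptor of A20, was the higher DEG, a call lost with GC-bin offsets and also without HN6 NC replicate 2. In that order their edgeR adjusted p were 0.02545, 0.0208, 0.151, 0.00706 and 0.0522. All were named here after their values were seen. With GC-bin offsets, or without HN6 NC replicate 2, 0 kinases and 1 gene of the I kappa B list (PDLIM2) were left as lower DEGs with siFAT1-2. In these fits 10 and 11 induced targets were lower DEGs, without TNFAIP2 in either case.

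**Figure D4:**
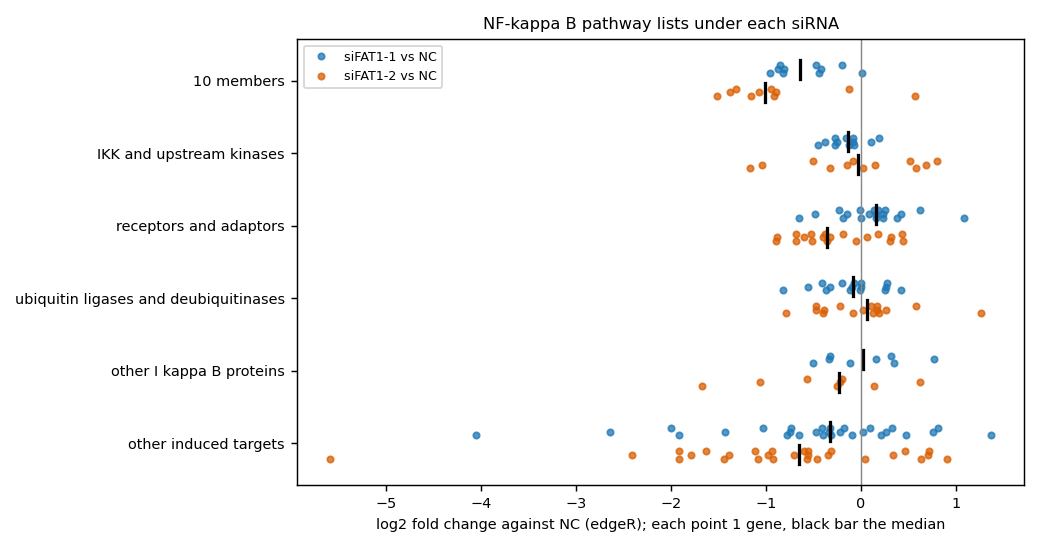
The log2 fold change against NC (x axis) of each gene of the 10 members and of 5 lists of other pathway genes (y axis), with siFAT1-1 in blue, siFAT1-2 in orange, 1 point for each gene tested and a black bar at the median. The members' medians lie at -0.64 and -1.02, those of the induced targets at -0.33 and -0.66, and the other 4 lists lie closer to 0.

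The genes whose pattern over the 12 libraries was nearest to that of NFKBIA, by the root mean square difference in log2 CPM relative to NC of the line, were TNIP1 (0.147), PFN1 (0.149) and WDR13 (0.176). Those nearest to RELA were MEF2D (0.193), MREG (0.204) and SLC35A4 (0.23). Among the members, NFKB2 was nearest to NFKBIA (0.275), NFKBIA was nearest to RELA (0.326), and BIRC3 was farthest from both (1.303 and 1.378). These distances are a description over libraries that share NC controls and the GC tilt.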

How the data were processed

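The authors aligned the reads of 12 poly(A) RNA libraries with HISAT2 to hg38 and deposited whole-number read counts per gene symbol from featureCounts (per the submitters' processing notes and the study's methods). Reads with poly-N, low quality or PCR duplication were removed by the authors beforehand. Versions, gene annotation and use of strand are not given in the sources used here, so reads of overlapping genes cannot be assigned. Depth ran from 26430049 to 47639010 counts. Intervals come from edgeR and cover the spread that each fit leaves unexplained. Where siRNAs or lines are pooled, this spread also holds differences between the siRNAs or between the lines' responses. Replicates were separate transfections of 1 line each, and may hold technical differences.

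Counts were filtered with filterByExpr (minimum count 10), scaled by TMM and tested with edgeR 4.0.16 (quasi-likelihood, common dispersion 0.139) in R 4.3.3, with Benjamini-Hochberg adjustment over all genes tested. Fits of all KD libraries and of each siRNA against NC held a term for the cell line, and single-line and interaction fits were separate. The thresholds for DEGs are those of the study (P below 0.05 without adjustment, and more than 1 in either direction on the log2 scale). Levels between genes are TMM CPM per kilobase of the GENCODE 44 canonical transcript, and 18278 of 19225 symbols matched that annotation. Likeness of pattern used the root mean square difference in log2 CPM (prior count 2). Figures were drawn with matplotlib 3.10.9.

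Replicate numbers mark separate times and so pair libraries within a line. Deviations of same-numbered libraries correlated at 0.0778, 0.219 and 0.242 in HN6 and at -0.0337, 0.404 and -0.0216 in HN30. Alternatives were DESeq2 size factors, no filter on low counts, limma-voom (limma 3.58.1), DESeq2 1.42.0, a replicate block, no cell line term and each library left out. GC-bin offsets (20 bins of transcript GC, per library, for the 95.5% of tested genes with a GC value) were chosen after seeing the data. The fits were tested on simulated data.

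The 10 members and the gene lists were chosen with earlier results of these data known. Genes of the other lists were named if they passed the DEG thresholds in all KD libraries against NC or had the highest mean CPM of their list.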

Additional observations from a re-analysis of the deposited data

Results flagged for a closer look

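NFKBIZ in HN6 siFAT1-2 replicate 1 was at 93.7 CPM, apart from the other 3 HN6 KD libraries, which lay at 27.3 to 32.8 CPM (Dixon's test). This was 1 of 20 sets of 4 KD libraries tested, and chance gives about 1 in 20. The NC library of the same line and replicate was at 95.5 CPM.

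The siRNAs differed in 2 subunits by edgeR's test of the difference itself over 4 libraries against 4. The rule was an adjusted p under 0.05, which 17.4% of genes passed, so that the members' share was close to the background. RELA was higher with siFAT1-1 than with siFAT1-2 by 1.12 and NFKB1 by 0.91 on the log2 scale. Both siFAT1-2 libraries lay below both siFAT1-1 libraries in each line, as they did for 18.2% of genes. With GC-bin offsets the log2 differences of RELA and NFKB1 were 0.84 and 0.83, and with a replicate block 1.12 and 0.93.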

How the results depend on the processing

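Of 600 member values under other settings, 563 kept their direction and side of the thresholds, 27 lost a call and 10 reversed. Of 840 with 1 library left out these numbers were 746, 27 and 42, and 25 gained a call. The replicate block changed member calls only in the comparisons named here. For all KD libraries, member DEGs went from 2 to 1 with DESeq2 size factors, limma-voom, DESeq2, the replicate block, GC-bin offsets and both together (0 to 4 with 1 library left out, 0 without HN6 NC replicate 1 or HN30 NC replicate 1 and 4 without HN6 NC replicate 2), and members with an adjusted p under 0.05 from 0 to 4 with DESeq2 (0 to 1 with 1 library left out). In HN6, member DEGs went from 5 to 2 with GC-bin offsets, with or without the block (3 to 7 with 1 library left out), and 1 member had an adjusted p under 0.05 with DESeq2. In HN30, member DEGs went from 1 to 0 with limma-voom, the replicate block, and GC-bin offsets with the block (0 to 2). With siFAT1-1, member DEGs ran from 0 to 3 with 1 library left out, and members with an adjusted p under 0.05 were 2 with DESeq2 and with GC-bin offsets plus the block (0 to 1 with 1 library left out). With siFAT1-2, member DEGs went from 5 to 3 with GC-bin offsets, with or without the block (4 to 7), and members with an adjusted p under 0.05 from 7 to 1 without a cell line term (5 to 7). Between the siRNAs, member DEGs went from 1 to 0 with GC-bin offsets, with or without the block (1 to 2, with 2 when HN6 siFAT1-2 replicate 2 was left out), and members with an adjusted p under 0.05 from 2 to 0 without a line term. The interaction DEG was lost (1 to 0) with the replicate block, with GC-bin offsets and with both (0 to 2). Between the lines in NC, member DEGs ran from 2 to 5 with 1 library left out (5 without HN6 NC replicate 2 or HN30 NC replicate 1), and members with an adjusted p under 0.05 went from 5 to 3 with GC-bin offsets (0 to 6). Over all genes, counts moved by over 1.5 times as follows. With an adjusted p under 0.05, genes for all KD went from 76 to 640 with DESeq2, 44 with the replicate block, 36 with GC-bin offsets plus the block and 4 without a line term (12 to 61 with 1 library left out), in HN6 from 0 to 68 and in HN30 from 0 to 201 with DESeq2, with siFAT1-1 from 451 to 1216 with DESeq2, 701 with GC-bin offsets, 824 with the block added and 28 without a line term (113 to 712), with siFAT1-2 from 1641 to 2694 with DESeq2 and 61 without a line term (693 to 1680), between the siRNAs from 2420 to 286 without a line term (997 to 3381), and between the lines from 4500 to between 2251 and 5454 with 1 library left out. Without a line term DEGs numbered 231 against 426 for all KD, 398 against 775 with siFAT1-1, 699 against 1258 with siFAT1-2 and 1058 against 1720 between the siRNAs, and without HN6 NC replicate 1 they numbered 1599 against 420 in HN6 and 1469 against 269 in the interaction, and without HN30 NC replicate 1 326 against 544 in HN30. The causes were not tested. Among single members, BIRC3 reversed with limma-voom in HN6 (0.029) and in the interaction (-0.55), and between the siRNAs with DESeq2 size factors (0.003), limma-voom (0.26), GC-bin offsets (0.56, or 0.44 with the block) and no line term (0.40). TNFAIP3 reversed between the siRNAs (-0.025) and REL in the interaction (0.028, or 0.055 with the block) with GC-bin offsets. With 1 library left out, values that crossed 0 ran, for BIRC3, from -1.32 to 0.34 in all KD, -2.35 to 2.82 in HN6, -1.30 to 0.20 with siFAT1-1, -1.64 to 0.57 with siFAT1-2, -0.37 to 0.54 between the siRNAs, -3.21 to 1.97 in the interaction and -0.38 to 4.78 between the lines. For NFKBIZ they ran from -1.07 to 0.57 in HN6, -0.83 to 0.27 in HN30, -0.57 to 0.27 with siFAT1-2, -0.92 to 0.72 in the interaction and -0.12 to 1.498 between the lines. For REL they ran from -0.075 to 1.87 in HN6, -0.28 to 0.58 in HN30, -0.27 to 0.29 with siFAT1-1 and -1.74 to 0.21 in the interaction. Others were NFKB2 in HN30 (-0.32 to 0.018), NFKBIA between the lines (-0.12 to 0.28), TNFAIP3 between the siRNAs (-0.12 to 0.27) and in the interaction (-0.13 to 0.72), and RELB in the interaction (-0.27 to 0.93).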

Other observations

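Among the 28 other induced targets the lines gave different counts. Within HN6, 7 were lower and 0 higher as DEGs, with a median log2 fold change of -0.83, and within HN30 3 were lower and 2 higher, with a median of 0.01. Lower DEGs made up 0.888% of all genes in HN6 and 1.91% in HN30, and DEGs in either direction 3.08% and 4.0%. The test of the difference between lines passed the DEG thresholds in 4 of them, all with the higher value in HN30, against 0.933% of all genes in that direction, while by edgeR 0 had an adjusted p under 0.05 and 4 an unadjusted P under 0.05.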
